A study of Mus musculus with 4 samples.

Results

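The genes described here encode the constitutive proteasome, together with the activators, the inhibitor and the assembly factors that carry the same family of symbols. They were taken from the deposited count table as protein-coding genes whose symbol is Psm, a letter from a to g and a number, leaving out the immunoproteasome genes Psmb8, Psmb9 and Psmb10. This gave 45 genes of 52636 in the table. Of these, 43 had at least 1 CPM, a count scaled to the size of its library, and are reported, among 12351 genes of the whole table that reached that level. The least abundant of the 43, Psmg3, still had 15.2 CPM in both shFAK libraries. Psma8, a testis-specific form of an alpha subunit, and Psmb11, the thymus-specific catalytic subunit, had 0 counts in every library, which allows up to 0.128 CPM (3 counts) in the shallowest library. By role, 31 of the 43 are subunits of the 26S particle itself, and the other 12 act on it or help to assemble it.

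The measurements are RNA-seq read counts from Myc-CaP cells, a mouse prostate cancer line that comes from Hi-Myc transgenic animals of the FVB strain. The series set a line with a stable hairpin that targets Ptk2, the gene of focal adhesion kinase (FAK), against a line with a control hairpin. They are called shFAK and shNC. Both were kept for 24 h in 10 µM norepinephrine, the stress hormone and sympathetic transmitter, or in vehicle, so the groups are shFAK norepinephrine, shFAK vehicle, shNC norepinephrine and shNC vehicle, with 1 library each. All groups share the Hi-Myc background and stable hairpin carriage, and the labels do not say how many hairpins, clones or pools make up a line. No difference below has a replicate check, and a ratio compares these libraries. In bulk RNA, fewer cells of a type and less RNA per cell cannot be told apart.

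The proteasome degrades proteins that carry ubiquitin chains. Its 20S core is a barrel in which outer rings of alpha subunits gate the entry and inner rings of beta subunits hold the catalytic sites. The 19S regulatory particle caps the barrel, where a ring of ATPases unfolds substrates and non-ATPase subunits bind and remove ubiquitin. Dedicated chaperones assemble the core and the cap, and other activators, the PA28 and PA200 proteins, can bind the core in place of the cap. Proteasome subunit genes are abundantly expressed in dividing cells, and proteasome inhibitors have been tested against many tumours.

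The libraries held 23410486 counts in shFAK norepinephrine, 26016936 in shFAK vehicle, 27598343 in shNC norepinephrine and 29948640 in shNC vehicle. Ptk2 had 1248 and 1294 counts in the shFAK norepinephrine and vehicle libraries, against 3158 and 3547 counts in the shNC norepinephrine and vehicle libraries, so the targeted gene was at 43.9% of shNC in norepinephrine and 40.8% in vehicle. The shFAK norepinephrine library stands apart in low-level genes: 119 genes had at least 8 counts there and at most 2 in each other library, against 4, 7 and 9 such genes in the other libraries. The ratios under vehicle and those within shNC do not use that library and are given beside each result. Of the luminal epithelial markers reported here, Krt8 was at most 6.19 CPM, and Krt18, Epcam and Cdh1 stayed below 1 CPM. Markers of other cells were low: the 4 immune markers summed to at most 0.075 CPM, the 3 endothelial markers to at most 0.188 CPM, and the 6 fibroblast markers to between 7.65 and 13.5 CPM, mostly from Pdgfra.

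Together the 43 genes took 0.799% of all counts in shFAK norepinephrine and 0.797% in shFAK vehicle, against 0.918% in shNC norepinephrine and 0.855% in shNC vehicle. The shares of both shFAK libraries lay below those of both shNC libraries, and the shNC norepinephrine library was the highest. Scaled by the trimmed mean of M values (TMM), the 14 genes of the 20S core summed to 2622 and 2564 CPM in shFAK norepinephrine and vehicle, against 3403 and 2870 CPM in shNC norepinephrine and vehicle. The 17 subunits of the 19S particle summed to 4284 and 4373 CPM in shFAK norepinephrine and vehicle, against 5175 and 4868 CPM in shNC norepinephrine and vehicle.

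Between genes, levels are compared as TMM-scaled CPM per kilobase of the deposited gene length, averaged over the 4 libraries. The levels spanned 40.4-fold, with Psmb4, a non-catalytic beta subunit, the highest at 218 CPM per kilobase and Psmf1, which encodes the proteasome inhibitor PI31, the lowest at 5.40 CPM per kilobase. Subunits that sit in the particle in equal numbers did not have equal levels: the alpha ring ran between 46.9 CPM per kilobase for Psma3 and 179.5 for Psma5, and the beta ring between 39.4 for Psmb7 and 218 for Psmb4. The places of Psma3 and Psmb7 as lowest are uncertain. Near-identical copies of Psma3 had 40.9% as many counts as the gene, and Nek6, which overlaps Psmb7, had 50.9% as many as Psmb7. Among the 19S ATPases, Psmc5 had 212 and Psmc2 had 54.1 CPM per kilobase. Among the 19S non-ATPase subunits, Psmd2, the large scaffold subunit, had 189 and Psmd11 had 23.5 CPM per kilobase.

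The assembly chaperones of the core ran between 6.04 CPM per kilobase for Psmg3 and 51.6 for Psmg4, and the assembly factors of the 19S base between 11.3 for Psmd5 and 25.98 for Psmd10. Of the activators, Psme3, the nuclear PA28-gamma, had 82.5 CPM per kilobase and Psme4, the PA200 protein, 17.4. Genes next to each other in this order, such as Psmd4 at 79.9 and Psmc6 at 79.9 CPM per kilobase, differed by less than the spread over libraries, which for Psmd4 was 70.5 and 73.4 CPM per kilobase in shFAK norepinephrine and vehicle, against 94.1 and 81.6 in shNC norepinephrine and vehicle. The deposited length counts all annotated exons, so a gene with long rarely used exons has its level lowered on this scale.

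**Figure D1:**
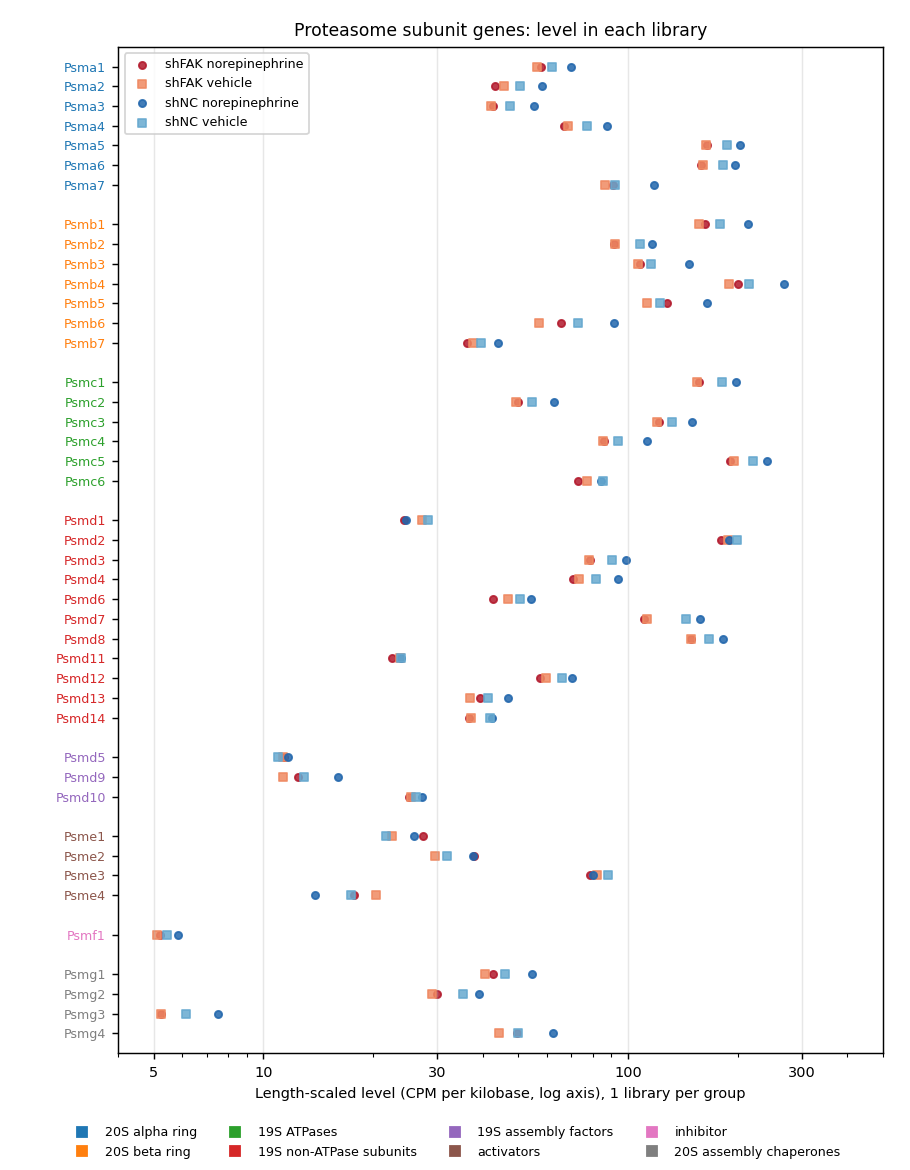
Length-scaled level (CPM per kilobase, log axis) of the 43 genes, grouped by role and by symbol within it, with 1 point per library: shFAK norepinephrine, shFAK vehicle, shNC norepinephrine and shNC vehicle. Levels run between 5.40 for Psmf1 and 218 for Psmb4 on average, and in most rows the shNC norepinephrine point lies farthest to the right.

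The hairpin comparison asked which genes differed between the FAK and control lines. Most proteasome genes were lower in shFAK: 40 of 43 log2 ratios were below 0 in norepinephrine and 40 of 43 in vehicle, against 47.6% and 49.4% of all genes. The median log2 ratio of the members was -0.33 in norepinephrine and -0.15 in vehicle, beside 0.02 and 0.00 over all genes. In an additive model of hairpin and treatment over the 4 libraries (edgeR's quasi-likelihood test, adjusted p under 0.05 over all 12351 genes), 30 members fell in shFAK, where 16.2% of all genes did, and 1 rose, where 19.5% of all genes did. The model has 1 residual degree of freedom, so its p-values assume that shFAK and shNC respond alike to norepinephrine, and they say nothing of the spread between cultures. For 25 of the 43 members, beside 11.0% of all genes, the 99% counting interval of the difference of responses lay below 0. There the additive estimate averages unlike ratios, such as -0.45 in norepinephrine and -0.12 in vehicle for Psmb3.

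The differences were small. No member passed 2-fold in any of the 4 ratios, a size that 4.79% of all genes passed. A log2 ratio past 1.2-fold with a 99% counting interval that leaves out 0 was met by 30 members lower in shFAK in norepinephrine, beside 17.0% of all genes, and by 3 in vehicle, beside 8.37%. In the other direction 1 member met it in norepinephrine, beside 20.8% of all genes, and 0 in vehicle, beside 12.6%. Psmd7, Psmb6 and Psmg2 met it as lower in both conditions, where 6.25% of all genes did, and 0 members did so as higher, where 9.89% of all genes did.

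In the 20S core, 13 of 14 genes fell in shFAK, beside 16.2% of all genes. The 13 were all 7 alpha subunits and 6 of the 7 beta subunits. Psmb6, the caspase-like catalytic subunit, had 122.7 CPM in shFAK norepinephrine and 106.9 CPM in shFAK vehicle, against 171.8 CPM in shNC norepinephrine and 137.0 CPM in shNC vehicle. Both shFAK libraries lay below both shNC libraries, and the level was 71.5% of shNC in norepinephrine and 78.1% in vehicle. Its log2 ratios were -0.48 (99% counting interval -0.57 to -0.40) in norepinephrine and -0.36 (-0.45 to -0.27) in vehicle, and -0.42 ± 0.09 (SE) in the additive model, with an adjusted p of 1.9e-05 by edgeR's quasi-likelihood test.

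Psmb5, the chymotrypsin-like catalytic subunit and the main target of proteasome inhibitors, had 111.4 and 98.1 CPM in shFAK norepinephrine and vehicle, against 143.3 and 106.6 CPM in shNC norepinephrine and vehicle. The shFAK norepinephrine value lay above the shNC vehicle value, so the lines overlapped across treatments, and the log2 ratios were -0.36 in norepinephrine and -0.12 in vehicle (additive adjusted p of 0.021, edgeR). Psmb7, the trypsin-like catalytic subunit, was the core gene that did not pass: it had 123.8 and 128.6 CPM in shFAK norepinephrine and vehicle, against 150.9 and 135.4 CPM in shNC norepinephrine and vehicle, with log2 ratios of -0.29 and -0.07 (adjusted p of 0.096, edgeR). The counts of Nek6, which overlaps Psmb7 on the other strand, came to 50.9% of those of Psmb7, and without strand their shared reads cannot be told apart.

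Among the other core genes, Psmb4 had 391.5 and 370.2 CPM in shFAK norepinephrine and vehicle, against 522.5 and 418.6 CPM in shNC norepinephrine and vehicle. Psma2, an alpha ring subunit, had 158.6 and 167.5 CPM in shFAK norepinephrine and vehicle, against 213.2 and 185.5 CPM in shNC norepinephrine and vehicle. For both genes each shFAK library lay below each shNC library. The log2 ratios of Psmb4 were -0.42 in norepinephrine and -0.18 in vehicle, and those of Psma2 -0.43 and -0.15. Psma3 had 165.7 and 164.0 CPM in shFAK norepinephrine and vehicle, against 215.6 and 184.8 CPM in shNC norepinephrine and vehicle. Psma5 had 217.1 and 216.4 CPM in shFAK norepinephrine and vehicle, against 268.3 and 246.9 CPM in shNC norepinephrine and vehicle. Here too the shFAK libraries lay together below both shNC libraries, with shNC norepinephrine the highest. Over the alpha ring the log2 ratios ran between -0.43 and -0.28 in norepinephrine and between -0.19 and -0.09 in vehicle, and over the beta ring between -0.48 and -0.29 and between -0.36 and -0.07.

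In the 19S regulatory particle 12 of 17 genes fell, beside 16.2% of all genes. The 12 were 5 of the 6 ATPases, all but Psmc6, and 7 of the 11 non-ATPase subunits. Psmd7, a subunit of the lid that pairs with the deubiquitinase Psmd14, had the lowest mean ratio of all members: it had 250.3 and 255.9 CPM in shFAK norepinephrine and vehicle, against 356.8 and 327.1 CPM in shNC norepinephrine and vehicle. The shFAK libraries were close to each other and well below both shNC libraries, at 70.1% of shNC in norepinephrine and 78.2% in vehicle. The log2 ratios were -0.51 (-0.57 to -0.45) in norepinephrine and -0.35 (-0.41 to -0.30) in vehicle, and the additive estimate was -0.43 ± 0.09 (SE, edgeR adjusted p of 7.8e-06).

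The ATPases unfold substrates and open the gate of the core. Psmc5 had 266.2 and 273.1 CPM in shFAK norepinephrine and vehicle, against 334.8 and 306.6 CPM in shNC norepinephrine and vehicle. Psmc2 had 250.6 and 248.4 CPM in shFAK norepinephrine and vehicle, against 314.7 and 275.3 CPM in shNC norepinephrine and vehicle. Psmc6 had 113.8 and 120.8 CPM in shFAK norepinephrine and vehicle, against 131.6 and 133.5 CPM in shNC norepinephrine and vehicle. In all 3 genes both shFAK libraries were below both shNC libraries, by the least in Psmc6. Over the 6 ATPases the log2 ratios ran between -0.40 for Psmc4 and -0.21 for Psmc6 in norepinephrine, and between -0.23 for Psmc1 and -0.13 for Psmc4 in vehicle. 

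Psmd4, a ubiquitin receptor, had log2 ratios of -0.42 in norepinephrine and -0.15 in vehicle. The non-ATPase subunits that did not pass were Psmd1, Psmd2, Psmd11 and Psmd14. Psmd2 had 725 and 758 CPM in shFAK norepinephrine and vehicle, against 762.5 and 806 CPM in shNC norepinephrine and vehicle, with log2 ratios of -0.07 and -0.09. Psmd1, the second large scaffold of the base, had 176.5 and 197.6 CPM in shFAK norepinephrine and vehicle, against 179.1 and 205.2 CPM in shNC norepinephrine and vehicle. Psmd11, a scaffold subunit of the lid, had 143.7 and 150.8 CPM in shFAK norepinephrine and vehicle, against 152.1 and 152.4 CPM in shNC norepinephrine and vehicle, log2 ratios of -0.08 and -0.02. For Psmd1 the shFAK vehicle value was above the shNC norepinephrine value, and the log2 ratios were -0.02 (-0.10 to 0.06) and -0.05 (-0.13 to 0.02).

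All 4 chaperones that assemble the core fell in shFAK, beside 16.2% of all genes, though only 1 did with the length trend described below taken off. Psmg3 had 364 and 402 counts in shFAK norepinephrine and vehicle, against 580 and 527 counts in shNC norepinephrine and vehicle. Its log2 ratio was -0.52 (-0.77 to -0.27) in norepinephrine and -0.23 (-0.48 to 0.02) in vehicle, where the interval reached 0. Psmg2, a partner of Psmg1 in the alpha ring chaperone, had 31.7 and 30.6 CPM in shFAK norepinephrine and vehicle, against 41.3 and 37.3 CPM in shNC norepinephrine and vehicle, with log2 ratios of -0.38 and -0.28 and an edgeR adjusted p of 0.0024. In both genes the shFAK libraries were nearly equal and below shNC.

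Of the 3 chaperones of the 19S base, Psmd9 fell. It had 90.2 and 82.2 CPM in shFAK norepinephrine and vehicle, against 115.8 and 93.5 CPM in shNC norepinephrine and vehicle, with log2 ratios of -0.36 and -0.19. Psmd5 had 82.3 and 81.9 CPM in shFAK norepinephrine and vehicle, against 84.6 and 79.1 CPM in shNC norepinephrine and vehicle. Psmd10, also known as the oncoprotein gankyrin, had 36.8 and 37.3 CPM in shFAK norepinephrine and vehicle, against 40.0 and 38.5 CPM in shNC norepinephrine and vehicle. The lines could not be told apart in these genes: the log2 ratios in norepinephrine and vehicle were -0.04 and 0.05 for Psmd5 and -0.12 and -0.04 for Psmd10, and all intervals held 0.

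None of the 4 activators fell, and Psme4 rose. Psme4, which encodes PA200, had 148.2 and 171.2 CPM in shFAK norepinephrine and vehicle, against 116.3 and 146.1 CPM in shNC norepinephrine and vehicle. Each shFAK library was above the shNC library of the same treatment, at 127% of shNC in norepinephrine and 117% in vehicle, with log2 ratios of 0.35 (0.26 to 0.44) and 0.23 (0.15 to 0.31) and an edgeR adjusted p of 0.0047. The subunits of PA28-alpha-beta, Psme1 and Psme2, had log2 ratios of 0.08 and 0.05 and of 0.01 and -0.10 in norepinephrine and vehicle, and all 4 intervals held 0. For Psme2 this leaves out the near-identical gene Psme2b, whose log2 ratios were -0.31 in norepinephrine and 0.59 in vehicle. With the counts of Psme2b added, Psme2 had -0.11 and 0.17, so its hairpin ratios are uncertain. Psme3 had 231.9 and 243.0 CPM in shFAK norepinephrine and vehicle, against 237.3 and 260.7 CPM in shNC norepinephrine and vehicle, log2 ratios of -0.03 and -0.10. The inhibitor gene Psmf1 had 33.6 and 32.8 CPM in shFAK norepinephrine and vehicle, against 37.6 and 35.1 CPM in shNC norepinephrine and vehicle, and its ratios of -0.16 and -0.10 had intervals that held 0.

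**Figure D2:**
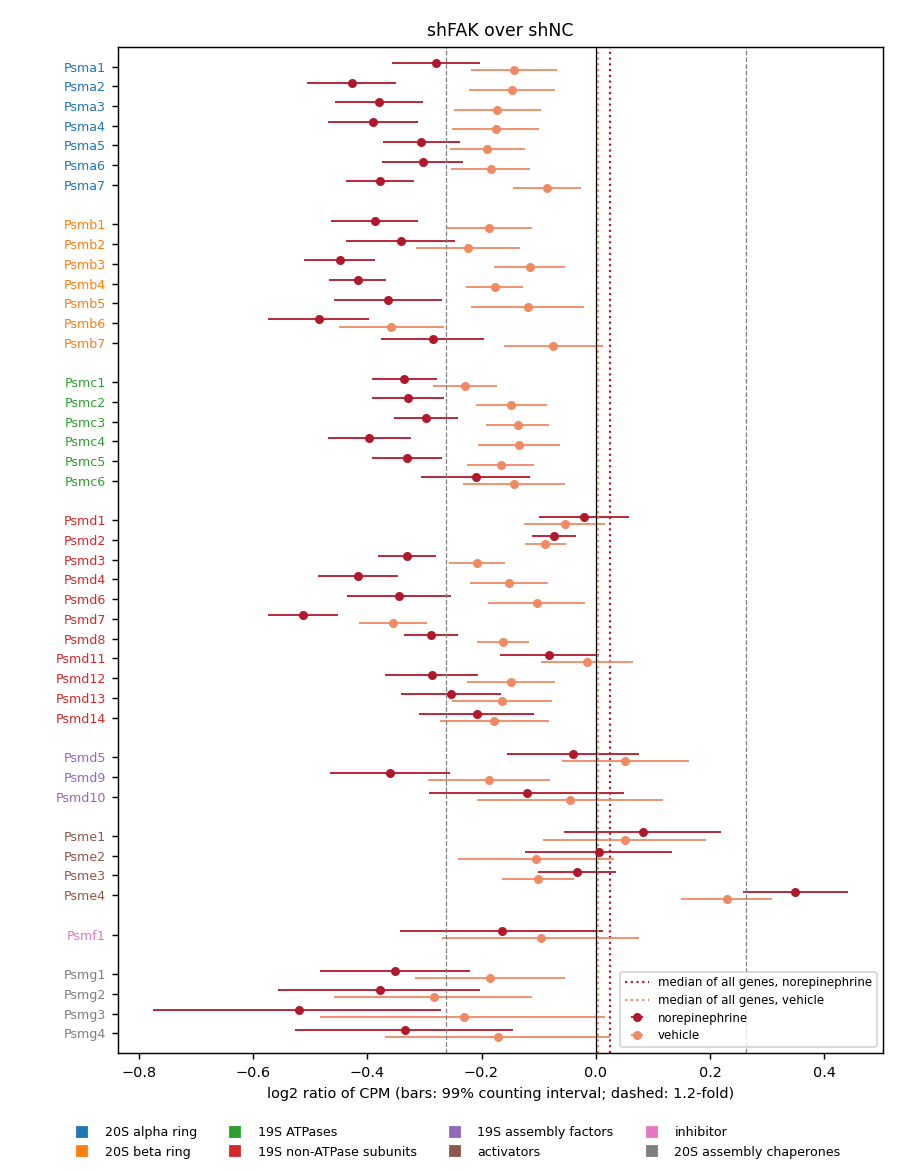
Log2 ratio of CPM, shFAK over shNC, for the 43 genes by role, in norepinephrine and in vehicle, with 99% counting intervals as bars, 1.2-fold as dashed lines and the median of all genes as dotted lines. Rows of the 20S core lie to the left of 0 in both conditions, with norepinephrine farther left, and Psme4 lies to the right in both.

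The ratios of these libraries moved with gene length, and the members are short. The median deposited length was 2649 bases for the members and 3981 bases for all genes kept. Across all genes the Spearman correlation of the log2 ratio with length was 0.47 for shFAK over shNC in norepinephrine and 0.32 in vehicle, and across the 43 members it was 0.32 and 0.44, over points that share the same libraries. With all genes put into 10 bins of length, the bins with medians of 2305 and 2958 bases had median log2 ratios of -0.13 and -0.09 in norepinephrine and -0.06 and -0.04 in vehicle. These 2 bins were nearer to 0 than the members' medians of -0.33 and -0.15. The shortest bin, at 729 bases, had -0.34 in norepinephrine and -0.19 in vehicle, past the members' medians, and the bin at 1588 bases had -0.21 and -0.11. The members ran between 555 and 8382 bases. Psme4, at 8382 bases the longest member, went the way of the long genes, whose longest bin had medians of 0.34 and 0.16.

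With a spline trend of each library with length taken off, the median log2 ratio of the members was -0.27 in norepinephrine and -0.13 in vehicle, beside -0.06 and -0.04 over all genes. In that model 26 members fell in shFAK, of which 21 were among the 30, where 21.3% of all genes fell, and 0 rose, where 12.1% of all genes did. Psmd7 (edgeR adjusted p of 2.6e-04) and Psmb6 (7.2e-04) were among those that still fell. The short genes Psmb1, Psmb2, Psmb5, Psma5, Psma6, Psmc5, Psmg1, Psmg2 and Psmg4 no longer passed. Psmb7, Psmd1, Psmd11, Psmd14 and Psmf1 passed only with the trend removed. By role, 9 of the 14 core genes, 14 of the 17 subunits of the 19S particle and 1 of the 4 core chaperones then fell. The order of the roles by share of genes that fell thus depends on the length trend. Psme4 was then at 0.08 and 0.10 and did not pass (edgeR adjusted p of 0.31). What the length trend comes from, and its part in these results, was not tested.

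**Figure D3:**
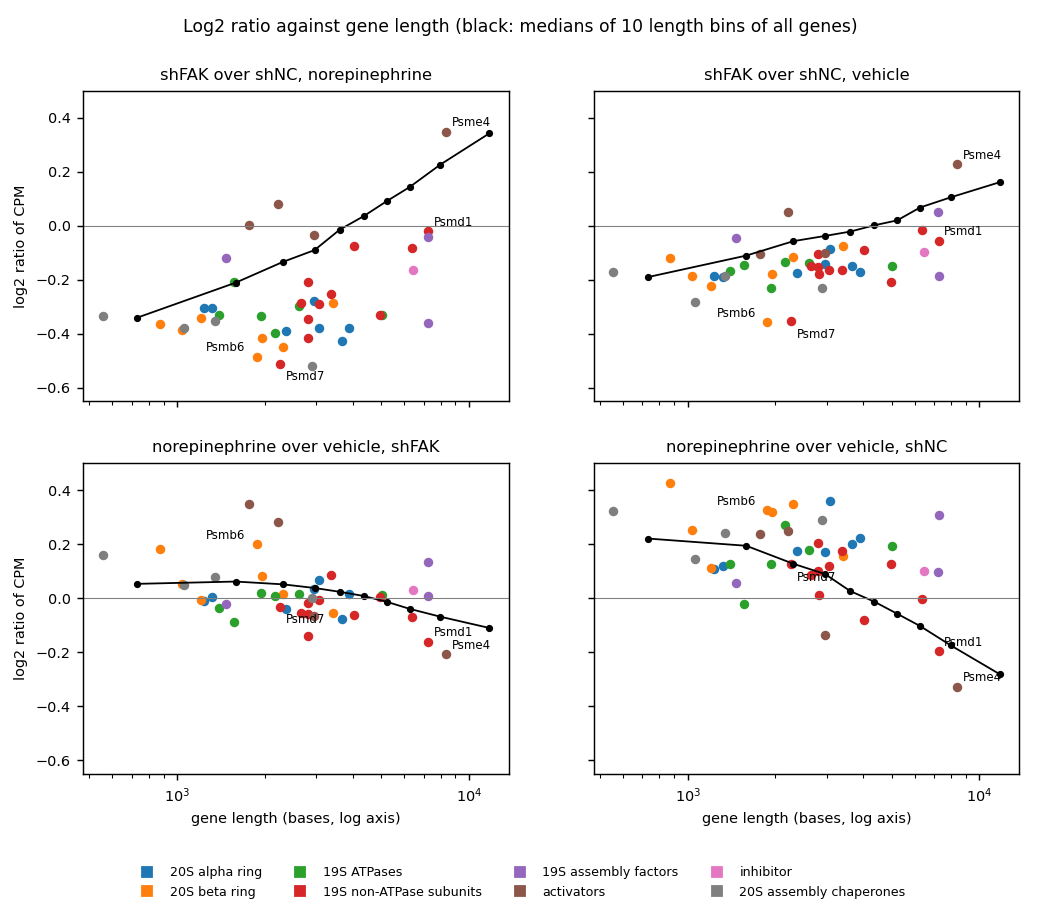
Log2 ratio of CPM against deposited gene length (bases, log axis) for the 43 genes, coloured by role, with 1 panel per ratio: shFAK over shNC in norepinephrine and in vehicle, and norepinephrine over vehicle in shFAK and in shNC. The black line joins the medians of 10 length bins of all genes, and in the upper panels most members lie below it, while Psme4 and Psmd1 lie nearer to it than Psmd7 and Psmb6.

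The scaling also bears on the counts, since a change of scale shifts the ratios of a pair together. Scaled to the sum of length-scaled counts, as TPM values are, the median of all genes moved to 0.26 in norepinephrine and 0.12 in vehicle, and the median of the members to -0.10 and -0.03. By construction such a shift leaves the distance of the members' median to that of all genes as it was, at -0.35 in norepinephrine and -0.15 in vehicle. The split of members lower and higher in shFAK was 30 and 1 with TMM, 13 and 1 with library size alone, where the median of all genes moved to 0.11 in norepinephrine, and 1 and 1 with TPM scaling, where Psmd7 was the gene that fell. Of all genes, 9.72% were lower and 23.5% higher with library size alone, and 3.36% and 30.8% with TPM scaling. By DESeq2's Wald test 8 members fell, where 7.12% of all genes with an adjusted p did, and 1 rose, where 8.54% did.

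Reads of some members cannot be placed with certainty. A near-identical copy or shared transcript sequence was found for 17 of the 43 genes, and of the other 26 genes 18 fell. For Psma3 the copies, led by the processed pseudogene Gm13835, had 40.9% as many counts as the gene, and for Psma5 13.5%. Overlapping genes had 17.0% of the counts of Psmc3, 7.10% of those of Psma2 and 6.63% of those of Psme1. With the counts of copies elsewhere added to the members, the same 30 genes fell.

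The norepinephrine comparison asked what the hormone changed in each line. In shNC, 37 of 43 members had a log2 ratio of norepinephrine over vehicle above 0, beside 49.96% of all genes, and 32 had a counting interval wholly above 0, beside 21.7% of all genes. In shFAK 24 of 43 were above 0, beside 49.95% of all genes, and 7 had such an interval, beside 10.4%. The median log2 ratio of the members was 0.00 in shFAK and 0.16 in shNC, beside 0.00 over all genes in each. In the additive model 4 members rose with norepinephrine, Psmb5, Psmb6, Psme1 and Psme2, where 5.04% of all genes did, and 1 fell, Psme4, where 7.29% of all genes did.

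By the 1.2-fold rule, 2 members were higher in shFAK, Psme1 and Psme2, beside 3.50% of all genes, and 9 in shNC, beside 11.2%. As lower, 0 members met it in shFAK, beside 2.79% of all genes, and Psme4 met it in shNC, beside 13.7%. In both lines together 0 members were higher, beside 1.34% of all genes, and 0 lower, beside 1.84%.

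Psmb5 had the highest ratio in shNC. Its counts were 2677 in shFAK norepinephrine and 2603 in shFAK vehicle, and 3822 in shNC norepinephrine and 3157 in shNC vehicle. The norepinephrine library was above the vehicle library in both lines, at 114% of vehicle in shFAK and 134% in shNC, with log2 ratios of 0.18 (0.08 to 0.29) and 0.43 (0.34 to 0.52) and an edgeR adjusted p of 0.0094. A processed pseudogene nearly identical to Psmb5, Gm3375, led a set of copies with 76.4% as many counts as Psmb5, so its reads may be split between the genes. With the copies added, the log2 ratios were 0.15 in shFAK and 0.34 in shNC.

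Psmb6 rose with log2 ratios of 0.20 (0.10 to 0.30) in shFAK and 0.33 (0.25 to 0.41) in shNC (edgeR adjusted p of 0.028). The other beta subunits had log2 ratios between -0.05 for Psmb7 and 0.08 for Psmb4 in shFAK, and between 0.11 for Psmb2 and 0.35 for Psmb3 in shNC, and none passed the additive test. All 14 core genes had intervals above 0 in shNC, and 4 of the 14 did in shFAK. In the 19S particle the counts were 12 of 17 in shNC and 0 of 17 in shFAK.

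The activators split. Psme1 had 60.5 CPM in shFAK norepinephrine and 49.7 CPM in shFAK vehicle, and 57.2 CPM in shNC norepinephrine and 48.0 CPM in shNC vehicle. Psme2 had 66.6 CPM in shFAK norepinephrine and 52.3 CPM in shFAK vehicle, and 66.4 CPM in shNC norepinephrine and 56.2 CPM in shNC vehicle. For both genes each norepinephrine library lay above both vehicle libraries, whichever the hairpin. The log2 ratios of Psme1 were 0.28 and 0.25 in shFAK and shNC, and those of Psme2 0.35 and 0.24, with edgeR adjusted p of 0.026 and 0.014.

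Psme1 and Psme2 encode the ring that interferon-gamma is known to induce. Psme2 is uncertain: a nearly identical gene, Psme2b, had 62.1% as many counts and moved the other way in shFAK, with log2 ratios of -0.28 in shFAK and 0.62 in shNC. With its counts added, Psme2 had log2 ratios of 0.10 and 0.38 and did not pass. Psme4 went down, to 86.6% of vehicle in shFAK and 79.6% in shNC, with log2 ratios of -0.21 (-0.29 to -0.12) and -0.33 (-0.42 to -0.24) and an edgeR adjusted p of 0.025.

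The next members by mean ratio did not pass the additive test. Psmg4, a chaperone of the core, had 660 counts in shFAK norepinephrine and 653 in shFAK vehicle, and 924 in shNC norepinephrine and 821 in shNC vehicle, with log2 ratios of 0.16 and 0.32. Psmd9 was at 0.13 and 0.31 (edgeR adjusted p of 0.079). On the lower side Psmd1 had log2 ratios of -0.16 in shFAK and -0.20 in shNC with both intervals below 0, and Psmd2 of -0.06 and -0.08, also with both below 0. Psme3 was at -0.07 and -0.14, Psmc6 at -0.09 and -0.02, and Psmd11 at -0.07 and 0.00.

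**Figure D4:**
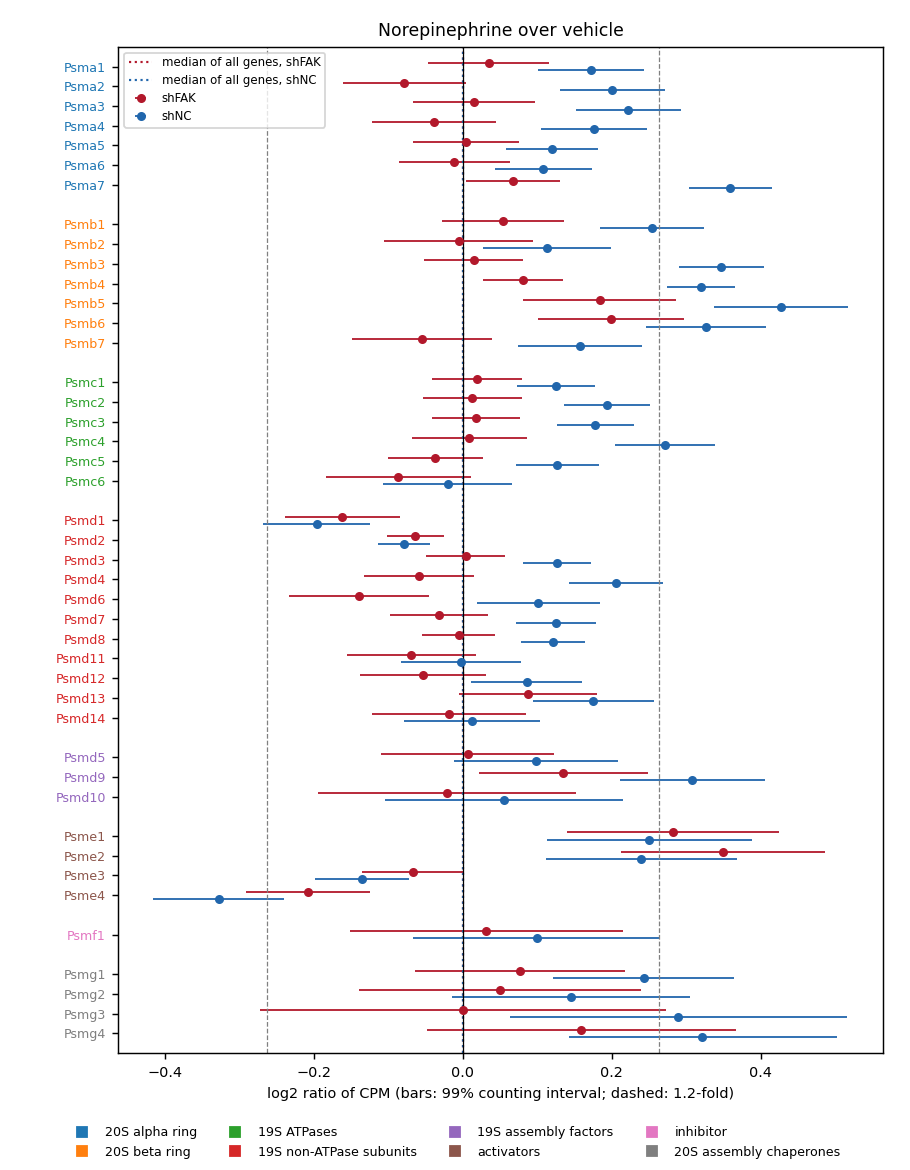
Log2 ratio of CPM, norepinephrine over vehicle, for the 43 genes by role, in shFAK and in shNC, with 99% counting intervals as bars, 1.2-fold as dashed lines and the medians of all genes as dotted lines. In shFAK most core and 19S genes lie about 0, in shNC they lie to the right, and Psme1, Psme2 and Psme4 lie on the same side in both lines.

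These ratios ran against length as well: the Spearman correlation over all genes was -0.29 in shFAK and -0.49 in shNC, and over the 43 members -0.35 and -0.31. With the length trend taken off, the members' medians were -0.06 in shFAK and 0.10 in shNC, beside -0.02 and 0.01 over all genes. In that model Psmd9 was the member that rose (edgeR adjusted p of 0.021), where 2.45% of all genes did, 0 members fell, where 2.76% did, and none of the 5 calls above remained. By DESeq2's Wald test 0 members rose, where 0.225% of all genes did, and 0 fell, where 0.590% did, and 7 had an unadjusted p under 0.05, against 11 in the edgeR fit. The split of members higher and lower was 4 and 1 with TMM, 2 and 1 with library size alone, and 0 and 1 with TPM scaling, under which the median of all genes in shNC moved to -0.14 and that of the members to 0.01. Of all genes, 2.94% were higher and 6.25% lower with library size alone, and 0.802% and 7.86% with TPM scaling.

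The lines can be compared through the difference of the norepinephrine log2 ratios, shFAK minus shNC, which equals the hairpin ratio in norepinephrine minus that in vehicle. It was below 0 for 37 of 43 members, beside 47.6% of all genes, with a median of -0.14 beside 0.01 over all genes. The 99% counting interval lay below 0 for 25 members, beside 11.0% of all genes, and above 0 for 0, beside 11.9%. Past 1.2-fold, 4 members had a lower response in shFAK, Psmb3, Psma7, Psma2 and Psmd4, where 4.34% of all genes did, and 0 a higher one, where 6.02% of all genes did. With 1 library per group this difference has no test beyond the counting interval, and it rests on all 4 libraries, the shFAK norepinephrine library among them.

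Psmb3, a non-catalytic beta subunit, had 5961 counts in shFAK norepinephrine and 6519 in shFAK vehicle, and 9030 in shNC norepinephrine and 7885 in shNC vehicle. Scaled, the shFAK libraries were alike at 248 and 246 CPM, while the shNC libraries stood apart at 339 and 266 CPM. The log2 ratio of norepinephrine over vehicle was 0.01 in shFAK and 0.35 in shNC, a difference of -0.33 (-0.42 to -0.24). Psma7, an alpha subunit, had 279.0 CPM in shFAK norepinephrine and 266.3 CPM in shFAK vehicle, and 362.4 CPM in shNC norepinephrine and 282.6 CPM in shNC vehicle. There the shNC norepinephrine library alone stood high, with log2 ratios of 0.07 in shFAK and 0.36 in shNC, a difference of -0.29 (-0.38 to -0.21). Psma2 had -0.08 and 0.20, a difference of -0.28 (-0.39 to -0.17). Psmg3 had a difference of like size, -0.29, but with 364 to 580 counts per library its interval was -0.64 to 0.06.

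Across roles, 13 of the 14 core genes, 11 of the 17 subunits of the 19S particle and 1 of the 8 chaperones, assembly factors and inhibitor had an interval below 0, and none of the 4 activators did. The activators had differences between 0.03 and 0.12, but that of Psme2 leaves out its near-identical copy Psme2b. With the counts of copies added, Psme2 had log2 ratios of 0.10 in shFAK and 0.38 in shNC. It was then among the members with a lower response in shFAK past 1.2-fold. Psmd6, a subunit of the 19S lid, was the member whose response was below 0 in shFAK, at -0.14 (-0.23 to -0.05), and above 0 in shNC, at 0.10 (0.02 to 0.18), with both intervals leaving out 0. With the length trend taken off its ratio in shNC was 0.02, and its sign there depends on the scaling. With library size alone, 1 member, Psmb3, passed 1.2-fold, and 0 did with TPM scaling. With the length trend taken off 4 did, of which 3 were the same, and Psmd9 stood in place of Psmd4.

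**Figure D5:**
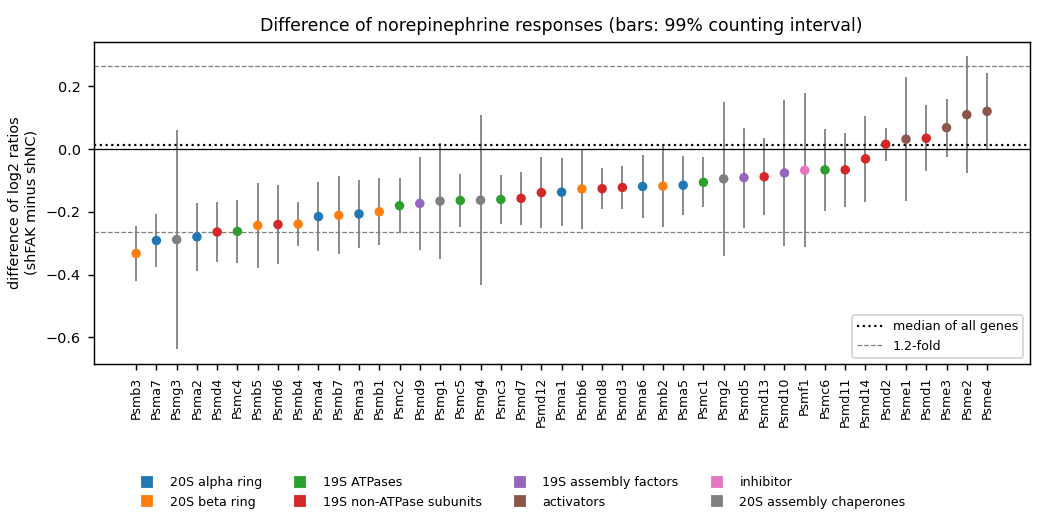
Difference of the norepinephrine log2 ratios, shFAK minus shNC, for the 43 genes in rising order and coloured by role, with 99% counting intervals as bars, 1.2-fold as dashed lines and the median of all genes as a dotted line. The run starts with Psmb3 at -0.33 and ends with Psme4 at 0.12, and the last 5 genes include all 4 activators. Psme2 is shown without the counts of its copy Psme2b.

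The order of the members was also compared between ratios that share no library. Over the 43 genes the log2 ratios of shFAK over shNC in norepinephrine and in vehicle, which share no library, correlated with a Pearson r of 0.83 and a Spearman rho of 0.63, and those of norepinephrine over vehicle in shFAK and in shNC 0.70 and 0.73. The first pair of values was 0.60 and 0.70 over all genes, and the second 0.27 and 0.49. All ratios share the length trend, and Psme4 lies at an end of each.

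As many members moved together, the stretches upstream of their starts were searched for 4 short motifs. RefSeq windows (GRCm38.p6) with 250 bases before and 50 after the annotated start were found for 36 of the 43 genes. The core of the antioxidant response element, TGACNNNGC, to which the transcription factors of the Nrf1 and Nrf2 kind are known to bind, was in 6 of the 36 windows (16.7%) on either strand, against 12.5% of all 27025 windows and 15.1% of those of the genes kept. The CCAAT box was in 12 (33.3%), against 37.9% and 39.7%. The E-box CACGTG, the site of Myc and Max, was in 3 (8.33%), against 7.24% and 10.7%, and the GC box GGGCGG in 22 (61.1%), against 35.9% and 66.7%.

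By call, TGACNNNGC was in 4 of the 24 windows of genes that fell in shFAK and in 2 of the other 12, CCAAT in 9 and in 3, CACGTG in 2 and in 1, and GGGCGG in 12 and in 10. A match is a description of the letters in the window. The 250 bases before the start are shown for the catalytic genes Psmb5 and Psmb6, which hold the antioxidant response core, for Psmb3, which had the largest difference of responses and holds CCAAT boxes, and for Psme4, which moved the other way. They read 5′ to 3′ on the strand of the gene, and capitals mark TGACNNNGC or CCAAT.
Psmb5 (chr14:54617996-54618245, minus strand): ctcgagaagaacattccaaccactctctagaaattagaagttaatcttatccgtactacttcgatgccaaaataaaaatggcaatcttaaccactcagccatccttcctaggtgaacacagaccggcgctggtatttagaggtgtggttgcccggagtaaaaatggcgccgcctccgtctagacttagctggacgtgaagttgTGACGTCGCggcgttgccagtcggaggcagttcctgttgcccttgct
Psmb6 (chr11:70525107-70525356, plus strand): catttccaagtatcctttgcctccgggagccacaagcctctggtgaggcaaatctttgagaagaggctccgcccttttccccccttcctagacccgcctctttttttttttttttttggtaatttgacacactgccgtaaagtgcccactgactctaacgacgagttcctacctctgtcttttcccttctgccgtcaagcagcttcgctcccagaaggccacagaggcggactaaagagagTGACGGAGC
Psmb3 (chr11:97703184-97703433, plus strand): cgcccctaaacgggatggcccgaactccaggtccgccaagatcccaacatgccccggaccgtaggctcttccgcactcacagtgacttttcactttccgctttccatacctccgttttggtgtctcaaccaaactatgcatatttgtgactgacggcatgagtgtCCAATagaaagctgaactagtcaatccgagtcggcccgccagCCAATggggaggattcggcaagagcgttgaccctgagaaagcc
Psme4 (chr11:30771525-30771774, plus strand): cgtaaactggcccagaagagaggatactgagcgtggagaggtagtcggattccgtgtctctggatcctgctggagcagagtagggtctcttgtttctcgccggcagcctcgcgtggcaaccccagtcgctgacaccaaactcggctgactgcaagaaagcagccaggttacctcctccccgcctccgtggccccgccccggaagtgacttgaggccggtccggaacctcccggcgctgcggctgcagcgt

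The match of Psmb5 starts at position -47 from the annotated start and that of Psmb6 at -9. Psmb3 holds 2 CCAAT boxes and no TGACNNNGC. In Psme4 neither motif is in these letters, and 1 GC box is.

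Genes that work with the proteasome but fall outside the symbol rule were counted from lists of related genes. Of 7 other subunits and assembly factors, 4 fell in shFAK, Adrm1, Sem1, Pomp and Txnl1, and 0 rose, beside 16.2% and 19.5% of all genes. Adrm1, a ubiquitin receptor of the 19S particle, had log2 ratios of -0.47 in norepinephrine and -0.17 in vehicle (edgeR adjusted p of 0.0014), Sem1, a small subunit of the lid, -0.47 and -0.18, and Pomp, the maturation factor of the core, -0.37 and -0.23. Adrm1 also rose with norepinephrine, by log2 ratios of 0.15 in shFAK and 0.45 in shNC (edgeR adjusted p of 0.0079), as 5.04% of all genes did. These genes had 3267 to 13526 counts per library.

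The Nrf1 route raises proteasome genes when proteasome activity is short. Of the 7 genes measured from a list for this route, 4 rose in shFAK, where 19.5% of all genes did, and 1 fell, where 16.2% did. The list also holds Nfe2l2, which encodes Nrf2 and did not pass. Nfe2l1, which encodes Nrf1, had 6234 and 7304 counts in shFAK norepinephrine and vehicle, against 5240 and 6703 counts in shNC norepinephrine and vehicle, with log2 ratios of 0.40 and 0.28 (edgeR adjusted p of 6.0e-04). Sel1l, a subunit of the ubiquitin ligase of the endoplasmic reticulum, had log2 ratios of 0.59 and 0.29, and Ddi2, the protease that activates Nrf1, 0.33 and 0.18. Ngly1 rose too, and Vcp, the ATPase that extracts proteins from membranes, fell (-0.18 and -0.25). Sel1l was also the gene of the list that fell with norepinephrine, with log2 ratios of -0.12 in shFAK and -0.42 in shNC (edgeR adjusted p of 0.027), as 7.29% of all genes did. With the length trend taken off 2 rose in shFAK, Nfe2l1 and Sel1l, and 1 fell, beside 12.1% and 21.3% of all genes. Sel1l then no longer passed as lower with norepinephrine.

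Of the ubiquitin genes reported here, the polyubiquitin gene Ubb rose with norepinephrine in the additive model, where 5.04% of all genes did. Its log2 ratios were 0.10 in shFAK and 0.38 in shNC (edgeR adjusted p of 0.029). With the length trend taken off Ubb did not pass. Rps27a, which encodes ubiquitin fused to a ribosomal protein, was called lower with norepinephrine in the additive model, as 7.29% of all genes were. However, Rps27a fell in shNC alone. Its log2 ratios were 0.03 (-0.01 to 0.07) in shFAK and -0.74 in shNC, and ribosomal pseudogenes make its counts uncertain. Of 5 cofactors of Vcp, Nsfl1c fell in shFAK (-0.42 and -0.24), where 16.2% of all genes did. Of the immunoproteasome genes left out by the rule, Psmb8 had 59 and 67 counts in shFAK norepinephrine and vehicle, against 10 and 7 counts in shNC norepinephrine and vehicle, log2 ratios of 2.49 (1.48 to 4.22) and 3.06 (2.02 to 5.26), and an antisense gene overlaps it in the annotation. Psmb10 had log2 ratios of -0.03 and 0.09, and Psmb9 stayed under 1 CPM in every library.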

How the data were processed

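RNA-seq was done on 4 libraries, 1 for each combination of hairpin and treatment, with no replicates. The authors deposited raw read counts per gene with gene coordinates, biotype and length. The submitters' processing notes name the mm10 build, featureCounts 1.5.0-p3 and HISAT2 2.0.5. Which annotation was used, and whether reads were counted by strand or at several places, was not given in the sources used here. The library kit named in the labels' protocols keeps no strand, so counts of overlapping genes and of near-identical copies are uncertain. Columns were matched to samples by title.

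Genes were kept where any library reached 1 CPM. Ratios used edgeR 4.0.16 TMM scaling in R 4.3.3, log2 CPM with a prior count of 2, and exact 99% Clopper-Pearson intervals, which cover counting error only, since PCR copies of a molecule were not marked and may be counted more than once. The interval of the difference of responses was a normal approximation on the log scale. The additive model (hairpin plus treatment) used edgeR's quasi-likelihood test on all genes kept, with Benjamini-Hochberg adjusted p under 0.05 over all of them. Its SE is shared almost wholly between genes of like expression. The length trend was a spline with 5 degrees of freedom per library. Near-identical copies (at least 95% identity over at least 100 bases) were found with minimap2 2.31. DESeq2 1.42.0 was an alternative. The computations were tested on simulated data.

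The genes and lists were chosen with earlier results of these data known. Full values were given for the catalytic subunits, for up to 6 members per direction with the largest mean ratio for hairpin and for norepinephrine, for up to 4 with the largest difference of responses, and for the highest and lowest of each role. Other members named were chosen after their values were seen. Some marker genes and some ubiquitin-related genes are not reported here.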

Additional observations from a re-analysis of the deposited data

Results flagged for a closer look

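Psmd6, which encodes a subunit of the 19S lid, was set apart because its response to norepinephrine had opposite signs in the lines. It had 2871 counts in shFAK norepinephrine and 3493 in shFAK vehicle, and 4046 counts in shNC norepinephrine and 4190 in shNC vehicle. The log2 ratio of norepinephrine over vehicle was -0.14 in shFAK and 0.10 in shNC with TMM, and both 99% counting intervals left out 0. With the length trend taken off the ratios were -0.20 and 0.02. TPM scaling moved the members' median in shNC from 0.16 to 0.01, a shift larger than the 0.10 of Psmd6. The opposite signs thus depend on the scaling. The difference of the log2 ratios was -0.24 (-0.36 to -0.12). With 1 library per group the difference was not tested against variation between cultures.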

How the results depend on the processing

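Of 166 results recomputed under another setting, 125 stayed on the same side of their rule, or moved by less than the counting interval or by less than 1.5 times, and 41 did not. The medians of shFAK over shNC in both conditions and of norepinephrine over vehicle in shNC kept their sign. Signs of single members were not followed in these 166 results. With TPM scaling, 31 members were below 0 for shFAK over shNC in norepinephrine and 30 in vehicle, against 40 in each with TMM. The median of norepinephrine over vehicle in shFAK, 0.0046, is near 0 and its sign changed: it was -0.037 with no filter, -0.056 with the length trend taken off, -0.0066 with length and GC trends taken off, -7.6e-04 without members with any copy, and -0.020 with TPM scaling. With library size alone, 13 members fell in shFAK, 2 rose with norepinephrine, 1 was higher in shFAK past 1.2-fold in both conditions, 1 had different responses, and the median of shFAK over shNC in norepinephrine was -0.24. With no filter on low counts, 0 members fell and 0 rose with norepinephrine, where 668 and 280 of 27256 genes did. In that edgeR fit 10 members had an unadjusted p under 0.05, and 9 had different responses. With DESeq2 size factors, 1 member was higher with norepinephrine past 1.2-fold in both lines. With the length trend taken off, 0 members rose in shFAK, 0 fell with norepinephrine and 1 rose. Taking off GC content too gave 0, 0 and 1. The DESeq2 Wald test gave 8 lower in shFAK, and 0 lower and 0 higher with norepinephrine. The edgeR test against 1.2-fold gave 0 members in each direction for both factors, with 3 at an unadjusted p under 0.05 for the hairpin and 0 for norepinephrine. Of all 12351 genes, 352 were lower and 796 higher in shFAK by that test, and 44 lower and 42 higher with norepinephrine. A 1.1-fold rule gave 24 members lower and 1 higher in shFAK in both conditions, 2 lower and 4 higher with norepinephrine in both lines, and 18 different responses. A 1.5-fold rule gave 0 lower in shFAK and 0 different responses. Shares of all genes were not counted for the fold rules and different responses under other settings, so those member counts cannot be set against them. Without the 4 members that have a copy named after them, 1 rose with norepinephrine.

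Some settings were chosen after seeing the data: GC content, any copy, added copies and TPM. Without the 17 members with any near-identical copy or shared transcript sequence, 18 of 26 fell in shFAK, 1 rose with norepinephrine and 2 had different responses. With TPM scaling, 1 member fell in shFAK and 0 rose with norepinephrine, 0 were lower and 1 higher in shFAK past 1.2-fold in both conditions, 0 had different responses, and the medians were -0.096 and -0.033 for shFAK over shNC in norepinephrine and vehicle and 0.014 for norepinephrine over vehicle in shNC. No paired analysis was possible because each group has 1 library and the labels give no replicate numbers, but the additive model compares the hairpins within each treatment. Leaving out a library leaves no residual degrees of freedom, so the ratios under vehicle and within shNC stand in for it. Depth limits most the members with few counts, such as Psmg3.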
